A study of Homo sapiens with 9 samples.

Results

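SOX5 and WWTR1 are 2 genes in which CDK9, mapped by chromatin immunoprecipitation and sequencing in A375 human melanoma cells, formed long runs of peaks within the span of the gene. The peaks described here are all those, in 6 deposited peak lists, that overlapped chromosome 12 from 23682000 to 24716000 (SOX5) or chromosome 3 from 149230000 to 149460000 (WWTR1), in hg19 coordinates as throughout. They numbered 149 of 27469 peaks in all, 85 in SOX5 and 64 in WWTR1, and every one was a CDK9 peak. The genes were chosen by the number and closeness of CDK9 peaks in these same lists, so their peak numbers and strengths are given as a description, without a test.

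Cells were exposed for 24 h to 25 µM A771726, to 25 µM A771726 with added nucleotides, or to DMSO, the vehicle. All are the same established cell line, and which nucleotides were added, and how much, is not given in the labels. Each treatment had 1 library with an antibody against CDK9 and 1 with an antibody against DDX21, and the 3 inputs of the series were not used here. With 1 library per group, no difference between treatments can be set against a replicate error.

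SOX5 encodes a transcription factor of the SOXD group, which binds DNA through an HMG box and lacks an activation domain of its own. It acts in cartilage formation together with SOX6 and SOX9, and in mouse melanocytes it modulates the activity of Sox10. WWTR1 encodes TAZ, the paralogue of YAP, a coactivator that the Hippo pathway holds in the cytoplasm and that binds TEAD factors in the nucleus. CDK9, with cyclin T, makes up P-TEFb, the kinase that releases paused RNA polymerase II into elongation. DDX21 is an RNA helicase of the nucleolus that also binds the 7SK complex, the store of inactive P-TEFb. A771726, the active form of leflunomide, blocks dihydroorotate dehydrogenase and with it pyrimidine synthesis.

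Both genes are transcribed from the minus strand, so the upper end of each window is the side of the gene start, and positions below are counted from there. That end is a boundary of the window, so these distances are not distances from a start. The promoter table used here, from RefSeq (GRCh38.p14), holds 1 start for SOX5 and 2 for WWTR1, of which WWTR1 start 1 lies farther upstream. Whether these genes have further starts was not examined. The 250 bases before each start, read on the gene's strand, show what kind of promoter lies at these starts, and capitals mark every CG.

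SOX5 start: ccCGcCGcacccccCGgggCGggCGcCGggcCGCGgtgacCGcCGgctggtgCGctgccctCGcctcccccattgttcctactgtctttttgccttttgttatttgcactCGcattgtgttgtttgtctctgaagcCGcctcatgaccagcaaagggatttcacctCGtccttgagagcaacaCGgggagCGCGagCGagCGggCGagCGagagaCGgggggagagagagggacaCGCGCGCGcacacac
WWTR1 start 1: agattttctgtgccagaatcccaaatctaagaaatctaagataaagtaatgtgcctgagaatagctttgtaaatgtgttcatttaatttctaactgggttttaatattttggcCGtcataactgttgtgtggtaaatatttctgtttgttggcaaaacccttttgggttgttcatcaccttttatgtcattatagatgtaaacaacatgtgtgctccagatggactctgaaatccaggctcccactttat
WWTR1 start 2: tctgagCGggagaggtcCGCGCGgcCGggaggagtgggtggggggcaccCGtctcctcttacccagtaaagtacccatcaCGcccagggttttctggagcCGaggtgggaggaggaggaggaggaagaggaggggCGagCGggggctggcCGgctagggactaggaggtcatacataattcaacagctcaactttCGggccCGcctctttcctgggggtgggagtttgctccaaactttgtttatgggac

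The SOX5 sequence held 27 CG, the WWTR1 sequences 1 and 13, and the median over all 35116 promoters of the table was 11 in the same length. None held TATAAA on either strand, while 10.7% of all promoters held it. The peaks are of hg19 and these sequences are of GRCh38, so no peak was placed on a start, an exon or an intron, and sequence of the peaks themselves is not printed. Other annotated genes overlap SOX5 (LOC105369697, MIR920 and SOX5-AS1) and WWTR1 (RNU6-1098P, WWTR1-IT1 and WWTR1-AS1). Peaks were not assigned between these and SOX5 or WWTR1.

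CDK9 peaks were few in both genes with A771726, and with added nucleotides they were about as many as in DMSO. SOX5 held 5 CDK9 peaks with A771726, 40 with A771726 and nucleotides, and 40 in DMSO. They covered 459 bp with A771726, 12194 bp with nucleotides and 10670 bp in DMSO, or 0.0444% with A771726, 1.18% with nucleotides and 1.03% in DMSO of the window. WWTR1 held 9 CDK9 peaks with A771726, 25 with A771726 and nucleotides, and 30 in DMSO. Their length was 1163 bp with A771726, 8889 bp with nucleotides and 10222 bp in DMSO. WWTR1 was therefore the more densely covered gene, at 0.506% with A771726, 3.86% with nucleotides and 4.44% in DMSO. The authors' peak caller gives each peak a q-value, here as −log10 q, and a fold enrichment, the ratio of the summit to its local background, and both rank peaks only within their own list. Among peaks with a −log10 q of at least 5, SOX5 held 0 with A771726, 26 with nucleotides and 26 in DMSO. WWTR1 held 3 with A771726, 13 with nucleotides and 19 in DMSO at that cut. The A771726 peaks of SOX5 were therefore all below it. The whole A771726 list had a median −log10 q of 4.69, itself below this cut. The medians of the whole lists were 5.59 with nucleotides and 5.63 in DMSO. When each CDK9 list was limited to its 290 strongest peaks, SOX5 held 5 with A771726, 9 with nucleotides and 6 in DMSO, and WWTR1 held 9 with A771726, 5 with nucleotides and 5 in DMSO. At equal list length, WWTR1 therefore had more peaks with A771726 than in DMSO. This sets the whole A771726 list, weak peaks included, beside only the strongest part of the DMSO list. At 1 WWTR1 site, 2 A771726 peaks also lay under 1 DMSO peak.

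**Figure D1:**
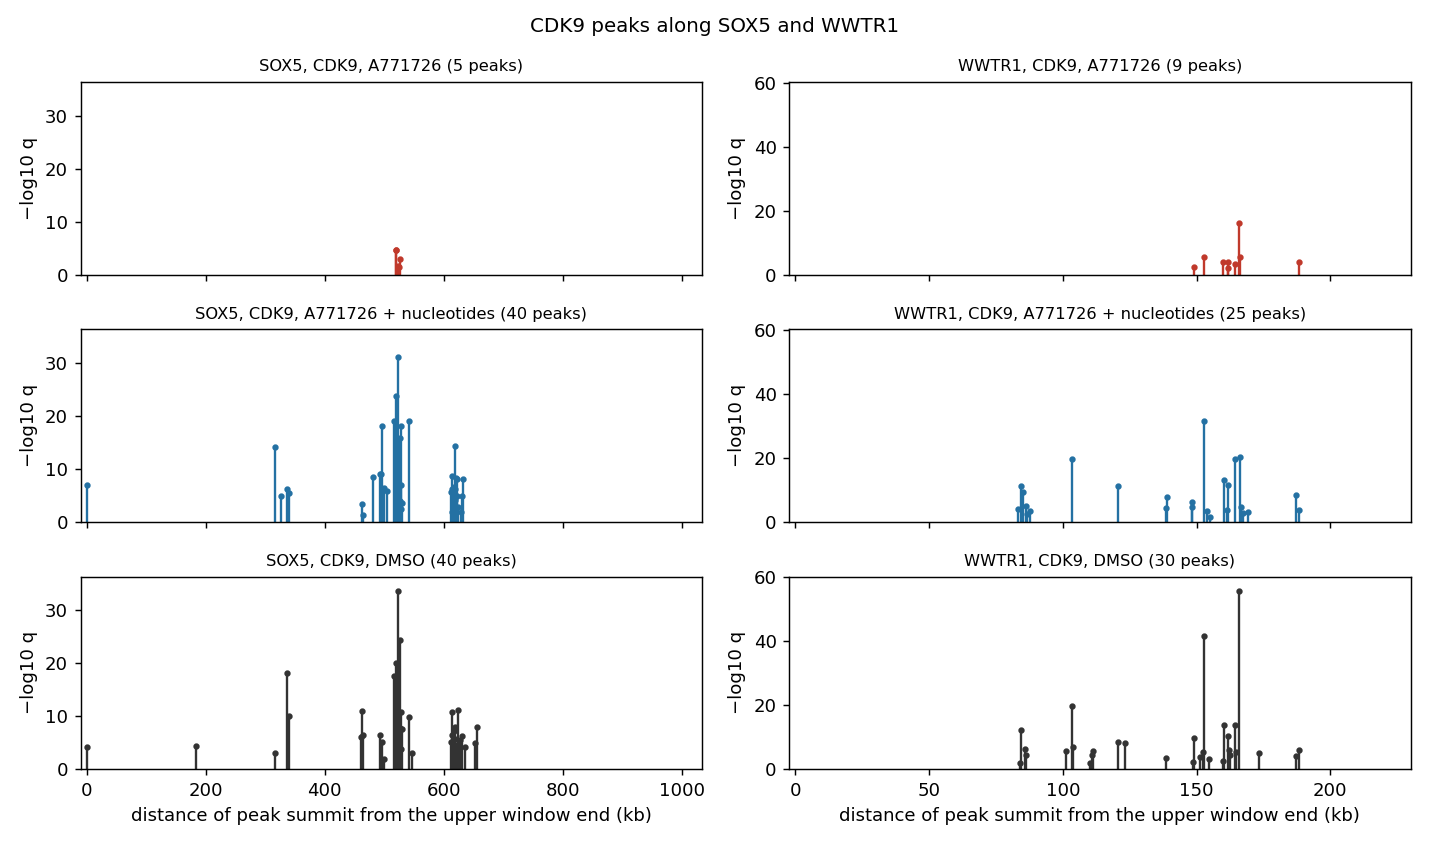
CDK9 peaks in SOX5 (left) and WWTR1 (right). Each line is 1 peak at the distance of its summit from the upper window end (kb), which is the side of the gene start, and its height is the −log10 q of the deposited list, with 1 row per treatment. SOX5 has 5 peaks with A771726, all near 520 to 526 kb, against 40 with nucleotides and 40 in DMSO, and −log10 q ranks peaks only within its own list.

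The whole CDK9 lists held 290 peaks with A771726, 3099 peaks with nucleotides and 3462 peaks in DMSO, so the A771726 list was the shortest as a whole. Per 100 DMSO peaks, the A771726 list held 12.5 in SOX5, 30 in WWTR1 and 8.38 over the whole lists. By covered length, the A771726 list reached 4.30 bp per 100 DMSO bp in SOX5, 11.4 in WWTR1 and 4.71 over the whole lists. SOX5 thus stood close to the whole list by length, while WWTR1 stood above it by both measures. These 2 genes held 14 of the 290 peaks with A771726, or 4.83% of the list. The shares were 2.10% of the nucleotide list and 2.02% of the DMSO list, but these lists are much longer. At 290 peaks per list, SOX5 held 5 with A771726, 9 with nucleotides and 6 in DMSO. WWTR1 then held 9 with A771726, 5 with nucleotides and 5 in DMSO, so at equal length the excess was in WWTR1 only.

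In the full lists, which differ in length, the share of each chromosome's CDK9 peaks that lay in these genes was highest with A771726. In SOX5 lay 5 of the 18 CDK9 peaks of chromosome 12 with A771726, 40 of 250 with nucleotides and 40 of 273 in DMSO. In WWTR1 lay 9 of the 20 of chromosome 3 with A771726, 25 of 173 with nucleotides and 30 of 195 in DMSO. The shares of chromosome 3 were 45.0% with A771726, 14.5% with nucleotides and 15.4% in DMSO. The A771726 shares rest on few peaks of a much shorter list, in genes chosen by their CDK9 peaks. At equal list length, SOX5 had no more peaks with A771726 than under the other treatments. Chromosome shares at equal list length were not examined.

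The libraries were not on an equal footing. The shortest CDK9 peak was 50 bp with A771726, 129 bp with nucleotides and 128 bp in DMSO, and median widths over the lists were 96 bp with A771726, 186 bp with nucleotides and 186 bp in DMSO. Relative to DMSO, the number of tags, estimated from the lowest background and the shortest peak of each list, was 1.14 with A771726 and 1.05 with nucleotides. The part that fragment length has in the peak numbers was not tested.

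Most SOX5 peaks lay near the middle of the window. The part of the window next to its lower end held none, over 507 kb with A771726, 402 kb with nucleotides and 377 kb in DMSO. Peaks of the 3 CDK9 lists, pooled and joined where gaps were at most 10 kb, formed 11 groups, and 5 of these had at least 5 peaks and are called runs here. The uppermost group held 1 peak with nucleotides and 1 in DMSO, from 24715198 to 24715554, only 0.446 kb from the upper window end. The fold enrichments there were 4.85 with nucleotides and 4.25 in DMSO.

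The run of SOX5 with the highest peaks spanned chromosome 12 from 24186663 to 24199192, 517 to 529 kb from the upper end and about midway along the window. It held 5 CDK9 peaks with A771726, 10 with nucleotides and 11 in DMSO. All SOX5 peaks with A771726 lay in this run, 520 to 527 kb from the upper end. A longer run, from 24080857 to 24103492, lay 613 to 635 kb from the upper end and held 0 with A771726, 16 with nucleotides and 14 in DMSO. Its highest −log10 q was 14.3 with nucleotides and 11.1 in DMSO, against 31.1 with nucleotides and 33.6 in DMSO in the run with A771726 peaks, so the run without A771726 peaks was also the weaker one in these lists.

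The other SOX5 runs were smaller, and none had an A771726 peak. The run from 24210944 to 24223247 held 5 peaks with nucleotides and 3 in DMSO, that from 24252394 to 24254543 held 2 with nucleotides and 3 in DMSO, and that from 24375950 to 24389828 held 3 with nucleotides and 2 in DMSO. The last of these included the DMSO peak from 24380008 to 24380201, the fourth strongest of SOX5, which had no A771726 peak.

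WWTR1 peaks fell into 4 runs, and no CDK9 peak lay in the 83.3 kb next to the upper window end or in the 41.6 kb next to the lower end. Neither start of WWTR1 was placed among the peaks, so a peak far from the upper end may still lie at a start. The largest run spanned chromosome 3 from 149286425 to 149321548, 138 to 174 kb from the upper end. It held 8 CDK9 peaks with A771726, 15 with nucleotides and 16 in DMSO. The only A771726 peak of WWTR1 outside it, from 149271746 to 149271795, lay in the neighbouring run from 149271586 to 149273032, which also held 2 peaks with nucleotides and 2 in DMSO.

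The WWTR1 runs nearer to the upper window end had no A771726 peak. The run from 149336543 to 149359114 held 2 peaks with nucleotides and 8 in DMSO, and the run from 149372143 to 149376713 held 6 with nucleotides and 4 in DMSO. In the first of these, nucleotide peaks covered 919 bp and DMSO peaks 2485 bp, the widest gap in number between these lists in any run of either gene. Its strongest peak was nearly the same in both lists, with a −log10 q of 19.6 and a fold enrichment of 7.44 with nucleotides, and 19.6 and 7.75 in DMSO.

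**Figure D2:**
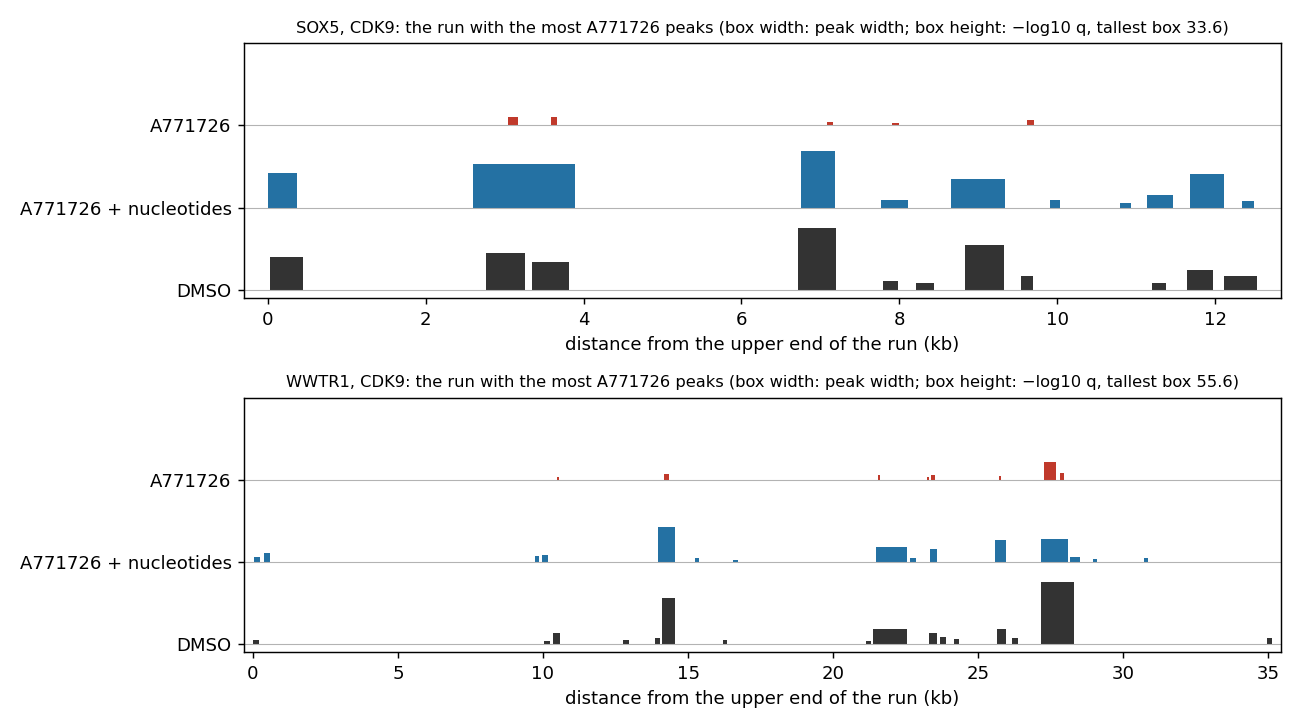
The run with the most A771726 peaks in SOX5 (top) and in WWTR1 (bottom), by distance from the upper end of the run (kb). Each box is 1 CDK9 peak, as wide as the peak and as high as its −log10 q, with 1 row per treatment. The A771726 boxes line up with boxes of the DMSO row and are narrower than those, except for 1 in WWTR1 that lies just beside a DMSO box.

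The strongest CDK9 peaks of WWTR1 ranked near the top of their lists. In DMSO, the peak from 149293237 to 149294375 was the third of 3462 by −log10 q, with a −log10 q of 55.6 and a fold enrichment of 11.1. The peak from 149306982 to 149307444 was the eleventh, with 41.4 and 12.5. Next came 149356271 to 149357193 with a −log10 q of 19.6, 149295594 to 149295904 with 13.9 and 149298995 to 149300171 with 13.8. All but the third of these 5, the one at 149356271, had an A771726 peak.

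With nucleotides the order of the WWTR1 peaks changed. The peak from 149307006 to 149307586 came first, at rank 24 of 3099, with a −log10 q of 31.5 and a fold enrichment of 11.8. The site that led in DMSO was split into 2 peaks, and the stronger, from 149293448 to 149294386, ranked 90, with 20.4 and 6.10. After it came 149295576 to 149295957 with 19.8, 149356235 to 149356880 with 19.6 and 149298990 to 149300073 with 13.0. These 5 peaks overlapped the 5 strongest DMSO peaks of WWTR1.

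With A771726 the strongest WWTR1 peak, from 149293862 to 149294282, ranked 14 of 290, with a −log10 q of 16.3 and a fold enrichment of 10.2. It lay inside the strongest DMSO peak, together with a second A771726 peak from 149293575 to 149293718, with 5.68 and 6.30. The peak from 149307200 to 149307386 had 5.51 and 6.87, and that from 149271746 to 149271795 had 4.12 and 6.29. Peaks starting at 149298051, 149299947, 149295769, 149310991 and 149298256 had a −log10 q of 4.07, 4.07, 3.52, 2.46 and 2.19. The last of these overlapped no peak of the DMSO or nucleotide lists. It began just past the end of the DMSO peak from 149297984 to 149298254.

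The leading SOX5 peaks ranked high in the DMSO and nucleotide lists, while none ranked above 144 of 290 with A771726. In DMSO the strongest, from 24191993 to 24192471, ranked 28 of 3462, with a −log10 q of 33.6 and a fold enrichment of 14.2. Then came 24189872 to 24190356 with 24.3, 24195940 to 24196434 with 19.9, 24380008 to 24380201 with 18.2 and 24198752 to 24199167 with 17.6. Of these 5, the first and the third had an A771726 peak.

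With nucleotides the leading SOX5 site was the same, from 24192002 to 24192432, at rank 27 of 3099, with a −log10 q of 31.1 and a fold enrichment of 7.95. After this site came 24195308 to 24196590 with 23.7, 24198827 to 24199192 with 19.1, 24173424 to 24174063 with 19.1 and 24187079 to 24187509 with 18.1. The second of these, 1283 bp wide, joined a pair of DMSO peaks into 1.

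The 5 SOX5 peaks with A771726 had −log10 q values of 1.59 to 4.75 and fold enrichments of 4.01 to 6.87. They ranked 144 to 283 of 290. The strongest, from 24196022 to 24196149, and the next, from 24195531 to 24195608, lay under the third strongest DMSO peak and its neighbour. The peak from 24192030 to 24192105, under the strongest DMSO peak, had a −log10 q of only 1.75 and a fold enrichment of 4.92. Those from 24189491 to 24189569 and from 24191194 to 24191291 had 2.93 and 1.59.

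Most peaks of both genes were of ordinary strength. In SOX5 the median −log10 q was 2.93 with A771726, 6.33 with nucleotides and 6.35 in DMSO, and over the whole lists it was 4.69 with A771726, 5.59 with nucleotides and 5.63 in DMSO. In WWTR1 it was 4.07 with A771726, 5.18 with nucleotides and 5.66 in DMSO. The highest decile of the list by −log10 q took in 0 of 5 SOX5 peaks with A771726, 9 of 40 with nucleotides and 6 of 40 in DMSO. For WWTR1 it was 1 of 9 with A771726, 5 of 25 with nucleotides and 5 of 30 in DMSO.

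With A771726, the median −log10 q of SOX5 was below that of the whole list, while its median fold enrichment was close to it. With nucleotides and in DMSO, both medians of SOX5 were above those of the lists. The median fold enrichment in SOX5 was 5.80 with A771726, 5.17 with nucleotides and 5.31 in DMSO. In WWTR1 it was 5.64 with A771726, 4.53 with nucleotides and 4.57 in DMSO. The whole lists had medians of 5.81 with A771726, 4.29 with nucleotides and 4.46 in DMSO. In SOX5, 2 of 5 peaks with A771726, 31 of 40 with nucleotides and 28 of 40 in DMSO were at or above the median fold of their list. The local background under the peaks, in fragments, had medians in SOX5 of 0.618 with A771726, 3.23 with nucleotides and 2.85 in DMSO, and in WWTR1 of 1.66 with A771726, 4.65 with nucleotides and 4.16 in DMSO. Over the whole lists these medians were 1.66 with A771726, 4.85 with nucleotides and 4.16 in DMSO, so the medians of neither gene exceeded those of the lists.

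**Figure D3:**
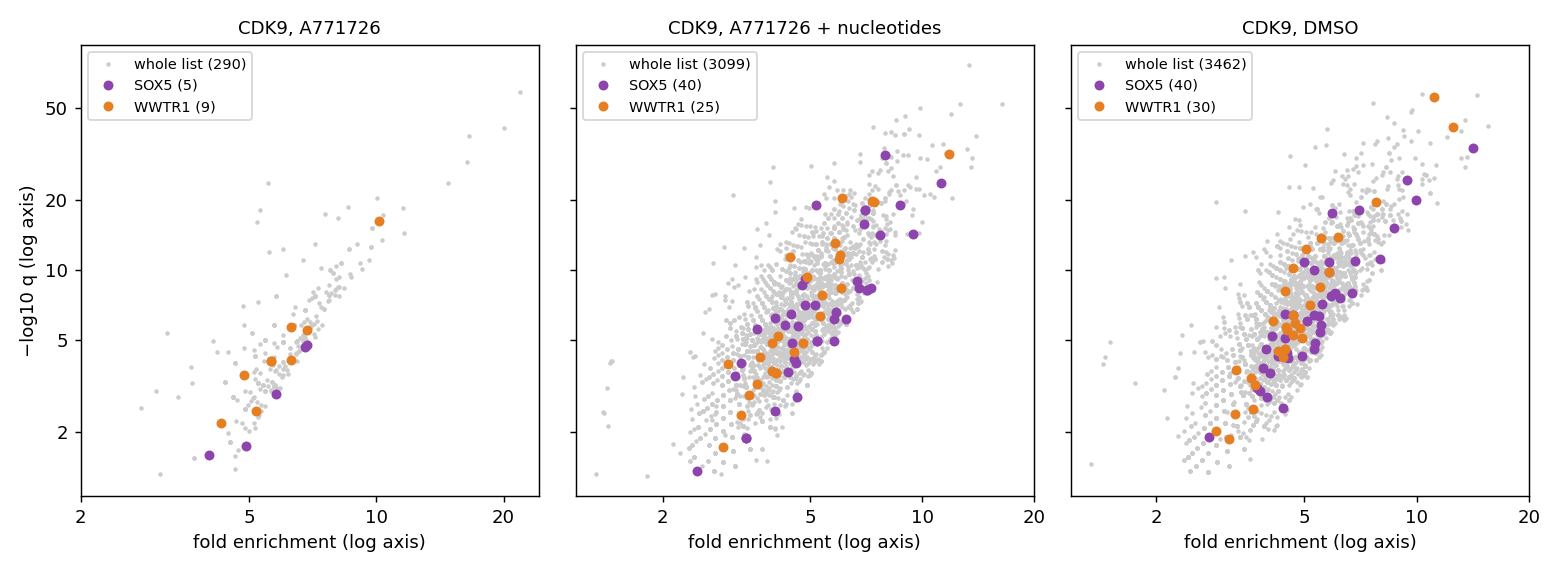
Fold enrichment against −log10 q (both log axes) for every CDK9 peak of the A771726, A771726 with nucleotides, and DMSO lists. Grey dots are the whole list, and coloured dots are the peaks in SOX5 and WWTR1. The DMSO panel has 1 WWTR1 peak at a −log10 q of 55.6 near the top of the list, and most other peaks of both genes lie within the cloud.

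The sites that had an A771726 peak were counted from the DMSO list, a peak being shared when it overlapped by at least 1 bp. Over the whole list, 5.40% of DMSO peaks had an A771726 peak. In SOX5 it was 5 of 40, or 12.5% (exact binomial 95% interval 4.19 to 26.8), and in WWTR1 7 of 30, or 23.3% (9.93 to 42.3). Intervals and limits of this kind cover counting error only and treat neighbouring peaks as independent. Among the highest decile of the DMSO list, 29.7% had an A771726 peak, against 3 of 6 in SOX5 and 4 of 5 in WWTR1. Outside these genes, 71 of the 519 DMSO peaks in clusters of at least 5 peaks of the DMSO list alone had one, or 13.7% (10.8 to 16.9). This lies within the intervals of both genes, but the sets differ. The gene counts take in all DMSO peaks of the window, of which 25 of 40 in SOX5 and 24 of 30 in WWTR1 lay in such clusters. Counted from the A771726 list, 5 of 5 SOX5 peaks and 8 of 9 WWTR1 peaks overlapped a DMSO peak, against 77.6% of that list, and 4 of 5 and 7 of 9 overlapped a peak with nucleotides, against 76.6%.

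DMSO peaks with an A771726 peak were the stronger ones in these genes. In SOX5 their median −log10 q was 15.1 (4.59 to 33.6, n = 5 peaks), against 6.02 (1.91 to 24.3, n = 35) for those without. In WWTR1 it was 13.8 (6.02 to 55.6, n = 7) against 5.11 (1.88 to 19.6, n = 23). The ranges overlapped in both genes. Of the DMSO peaks without a partner, 1 of 35 in SOX5 and 3 of 23 in WWTR1 had a −log10 p under the lowest of the A771726 list. Of those with a partner, 0 of 5 and 0 of 7 did, against 239 of all 3462 DMSO peaks, with or without a partner, or 6.90%. What part peak strength has in the missing partners was not tested.

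Strength did not sort the sites fully. The SOX5 DMSO peak from 24189872 to 24190356 was the second strongest of the gene and had no A771726 peak. A neighbour from 24191211 to 24191396, with a −log10 q of 4.59 and a fold enrichment of 3.93, had one. Within SOX5, 5 of 11 DMSO peaks of the run from 24186663 to 24199192 had an A771726 peak, and 0 of 14 of the run from 24080857 to 24103492 did, which allows a share of up to 21.4%. For a count of 0, this limit is 3 peaks of the total, here and below, in place of an interval. In WWTR1, 6 of 16 DMSO peaks of the run from 149286425 to 149321548 had one, and 0 of 8 of the run from 149336543 to 149359114, which allows up to 37.5%.

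Added nucleotides gave peaks at many of the same places. Over the whole list, 45.2% of DMSO peaks had a peak with nucleotides. In SOX5 it was 25 of 40, or 62.5% (45.8 to 77.3), and in WWTR1 15 of 30, or 50% (31.3 to 68.7). The share was 65.3% (61.0 to 69.4) for the 519 DMSO peaks in other clusters, while the gene counts also include peaks outside clusters. All 6 SOX5 and all 5 WWTR1 peaks in the highest decile of the DMSO list had a peak with nucleotides, against 91.6% of the whole decile. Seen from the other list, 25 of 40 SOX5 peaks and 15 of 25 WWTR1 peaks with nucleotides overlapped a DMSO peak, against 50.6% of the whole list. An A771726 peak lay at 3 of the 40 and 6 of the 25, against 5.74% of that list.

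When overlapping peaks of the 3 CDK9 lists were joined into sites, SOX5 had 53 sites and WWTR1 39. In SOX5, 3 sites had a peak in all 3 lists, 1 in the A771726 and DMSO lists, and 20 in the nucleotide and DMSO lists. Another 15 had a peak only with nucleotides and 14 only in DMSO. In WWTR1, 6 sites had a peak in all 3 lists, 1 in the A771726 and DMSO lists, and 7 in the nucleotide and DMSO lists. Another 10 had a peak only with nucleotides, 14 only in DMSO and 1 only with A771726, the one just beside a DMSO peak. Sites of 1 list were therefore common in both genes even between the nucleotide and DMSO lists.

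The run of SOX5 from 24080857 to 24103492 shows this mixing best. Of its 14 DMSO peaks, 6 overlapped a peak with nucleotides, although the nucleotide list held 16 peaks there. In the run from 24186663 to 24199192, 9 of 11 DMSO peaks did. Summits of shared sites lay close together, taking for each list the tallest peak of the site, or the first by position at a tie. Between nucleotide and DMSO summits the median distance was 51 bp over 36 sites of both genes, with a range of 2 to 337 bp. Between A771726 and DMSO summits the median was 58 bp over 11 sites, and the longest distance was 591 bp. Both longest distances came from sites with more than 1 peak in a list, where the summits compared were not the nearest ones. At the SOX5 site, A771726 summits lay at 24195584 and 24196129, and DMSO summits at 24195643 and 24196175. At the WWTR1 site, the nucleotide summit lay at 149373833, and DMSO summits at 149373763 and 149374170.

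Heights could be set beside each other at the sites with a peak in more than 1 list. The number of fragments over a summit, the pileup, was recovered from the deposited values. Dividing it by the lowest background found in that list gave a height, which allows for depth and fragment length. At the leading WWTR1 site the pileup was 26 fragments with A771726, 52 with nucleotides and 87 in DMSO, and the height was 49.9 with A771726, 41.8 with nucleotides and 74.3 in DMSO. At the WWTR1 site from 149306982 to 149307689, pileups were 13 with A771726, 45 with nucleotides and 58 in DMSO, and heights 25.0 with A771726, 36.2 with nucleotides and 49.5 in DMSO. At the leading SOX5 site, pileups were 8 with A771726, 62 with nucleotides and 41 in DMSO, and heights 15.4 with A771726, 49.8 with nucleotides and 35.0 in DMSO, so the nucleotide peak was the tallest there.

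Heights with A771726 were below those in DMSO at 9 of 11 sites, against 57.5% of all 179 CDK9 sites with both peaks. The ratio of A771726 to DMSO height had a median of 0.812 over 4 SOX5 sites, with a range of 0.439 to 1.33, and of 0.865 over 7 WWTR1 sites, with a range of 0.504 to 1.03. Over those 179 sites the median was 0.932, with quartiles of 0.761 and 1.28. These sites are those tall enough to be called with A771726, so their ratio does not describe the sites without a peak. The lowest ratio, 0.439 at the leading SOX5 site, came from an A771726 height of 15.4, the lowest in that list. A SOX5 site with a ratio of 0.899 had the same A771726 height. The ratio of nucleotide to DMSO height had a median of 1.04 over 23 SOX5 sites and 0.990 over 13 WWTR1 sites, against 0.986 over all 1477 such sites.

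**Figure D4:**
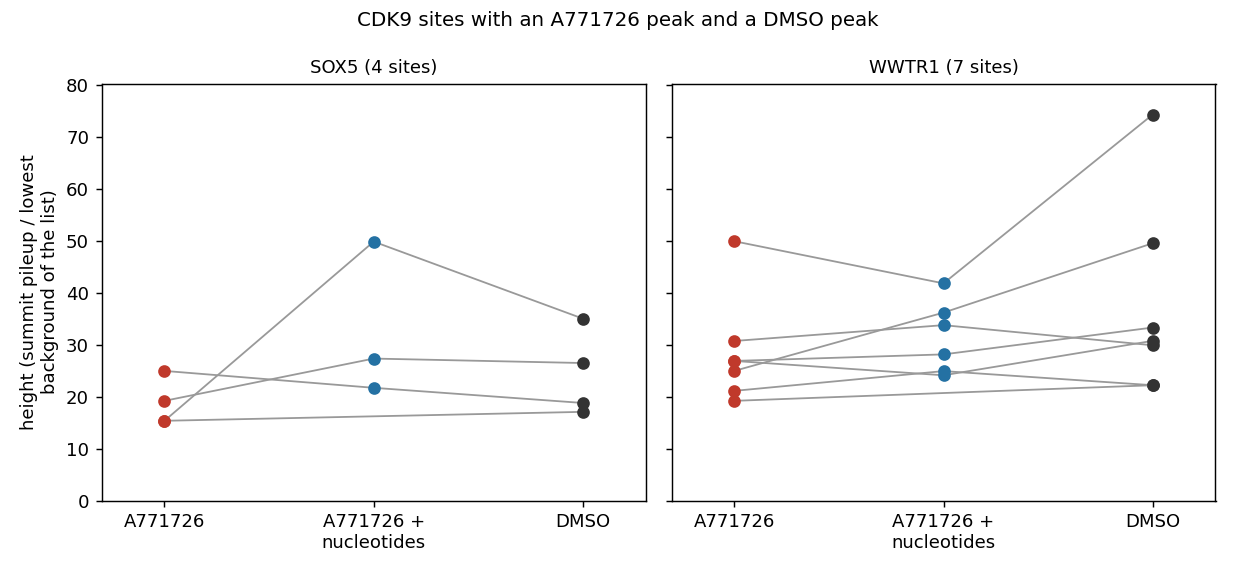
Height (summit pileup over lowest list background) at the CDK9 sites of SOX5 and WWTR1 with an A771726 peak and a DMSO peak. Each line joins 1 site, and a point is missing where the nucleotide list had no peak. The leading WWTR1 site stands at 49.9 with A771726, 41.8 with nucleotides and 74.3 in DMSO.

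The lowest height in the A771726 list was 15.4. Of all DMSO peaks, with or without an A771726 partner, 27 of 40 in SOX5 and 26 of 30 in WWTR1 reached it, against 2730 of 3462 in the whole list. Among those without a partner, 22 of 35 in SOX5 and 19 of 23 in WWTR1 did. Of those 2730, 6.45% had an A771726 peak. Whether a peak is called also depends on its local background, so this height is no sharp limit.

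DDX21 had no peak in either gene under any treatment. Its lists held 4375 peaks with A771726, 7922 with nucleotides and 8321 in DMSO, and a count of 0 allows each gene up to 0.0686% with A771726, 0.0379% with nucleotides and 0.0361% in DMSO. The nearest DDX21 peaks to the SOX5 window lay 1483 kb below it with A771726, 632 kb above it with nucleotides and 632 kb above it in DMSO. WWTR1 had DDX21 peaks closer by. The nearest above the window lay 10.2 kb away under all 3 treatments, from 149470153 to 149470504 in DMSO, with fold enrichments of 5.54 with A771726, 14.6 with nucleotides and 14.6 in DMSO. Another lay 4.44 kb below the window with nucleotides and 4.48 kb below it in DMSO, and with A771726 the nearest on that side was 4874 kb away.

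CDK9 peaks of both genes therefore overlapped no DDX21 peak. Over the whole lists, 15.5% of CDK9 peaks with A771726, 13.6% with nucleotides and 17.8% in DMSO overlapped a DDX21 peak of the same treatment. In DMSO the counts were 0 of 40 in SOX5 and 0 of 30 in WWTR1. These counts follow from the lack of any DDX21 peak in the windows, so the CDK9 peaks are not separate trials here. Among the 519 DMSO peaks of other clusters the share was 5.97% (4.09 to 8.37). A difference from other clusters was not tested. The gene counts here also include peaks outside clusters.

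CDK9 peaks next to the windows lay far off with A771726 and nearer in DMSO. The A771726 list held 290 peaks against 3462 in DMSO, and these distances were not adjusted for list length. With A771726 the nearest CDK9 peak outside SOX5 lay 10647 kb below and 2987 kb above, and outside WWTR1 8096 kb below and 27618 kb above. With nucleotides it lay 2971 kb below and 50.9 kb above SOX5, and 2157 kb below and 10.2 kb above WWTR1. In DMSO the nearest outside SOX5 lay 984 kb below, with a fold enrichment of 2.90, and 38.1 kb above, with 3.32. Outside WWTR1 they lay 4178 kb below and 10.2 kb above, the second with a fold enrichment of 3.36, where DDX21 also had its peak. The outermost DMSO peaks inside the windows had fold enrichments of 6.70 and 4.25 at the lower and upper ends of SOX5, and 4.13 and 2.90 in WWTR1.

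The long runs of these genes were among others of like size. Over the 3 CDK9 lists together, 23 runs had at least 20 peaks, and 3 of them lay in SOX5 or WWTR1, at places 4, 8 and 11 by number of peaks. The largest WWTR1 run held 8 A771726 peaks for 16 in DMSO, or 50 per 100, and the SOX5 runs held 45.5 and 0 per 100. The other 20 runs had a median of 22.2 per 100 and between 0 and 40 A771726 peaks, and 5 of them had none. A run with no A771726 peak was therefore not particular to SOX5. The strongest DMSO peak of those 5 runs had a −log10 q of 14.1 to 30.4, against 11.1 in the SOX5 run without A771726 peaks.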

How the data were processed

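Chromatin immunoprecipitation and sequencing of CDK9 and DDX21 was read from 1 deposited peak list for each antibody and treatment. Samples were grouped by their titles. Per the submitters' processing notes, Bowtie, MACS2 2.0 and hg19 were used. For parameters, the control and read totals, nothing is given in the sources used here. Each deposited list gives the authors' fold enrichment (a ratio), −log10 p and −log10 q per peak. The deposited score column repeats −log10 q (10 times its value, without decimals) and was left aside.

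Peaks were shared at an overlap of 1 bp or more, and shares carry exact binomial (Clopper-Pearson) 95% intervals, or, for a count of 0, an upper limit of 3 counts of the total. Ranks and deciles of a list follow −log10 q. Pileups of the CDK9 lists were recovered as the whole number that meets both fold enrichment, taken as (pileup + 1)/(background + 1), and the Poisson −log10 p. It did so within 0.001 for 100% of peaks, and the step was tested on simulated data. No p-value was computed, since each group had 1 library. Peaks named are every run, every A771726 peak and the 5 strongest of the other CDK9 lists in each gene, and others singled out were chosen after their values were seen. The 2 genes, their windows and these descriptions were chosen with earlier results of these data known. Python 3.11.15, numpy 2.4.6, pandas 2.3.3 and scipy 1.17.1 were used.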

Additional observations from a re-analysis of the deposited data

How the results depend on the processing

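Among 68 alternatives (66 planned), 21 moved a share out of its 95% interval or a number by more than 1.5 times, 47 did not, and 0 changed the sign of a value, since numbers and shares have none. With a −log10 q of at least 5, DMSO peaks with an A771726 peak were 0% in SOX5, and CDK9 peaks were 0 with A771726, 26 with nucleotides and 26 in DMSO in SOX5, and in WWTR1 3 with A771726, 13 with nucleotides and 19 in DMSO. SOX5 then had 3 runs. With peaks within 1 kb merged, they were 3 with A771726, 21 with nucleotides and 24 in DMSO in SOX5, and in WWTR1 12 with nucleotides and 14 in DMSO. When each list was limited to its 290 strongest peaks, SOX5 held 5 with A771726, 9 with nucleotides and 6 in DMSO, WWTR1 held 9 with A771726, 5 with nucleotides and 5 in DMSO, which turns the order of A771726 and DMSO in WWTR1, and DMSO peaks with an A771726 peak were 50% in SOX5 and 80% in WWTR1. A gap of 20 kb joined the runs into 3 in SOX5 and 1 in WWTR1. DDX21 peaks were 0 in both genes under every alternative. The alternative that keeps DMSO peaks at or above the lowest A771726 height was chosen after seeing the data. The causes of these moves were not tested. No paired analysis was possible because each group had 1 library, which also means that no replicate could be left out. Depth is known only relative to DMSO, so a site without an A771726 peak is one that was not called, and its height there is unknown.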
